A study of Mus musculus with 4 samples.

Results

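The genes described here encode the protein part of the cytosolic ribosome. They were chosen by name, as every row whose symbol starts with Rpl or Rps and a digit, together with Rplp0, Rplp1, Rplp2, Rpsa and Fau, while rows named as pseudogenes, the S6 kinases, Rps3a2 and Rps3a3 were left out. The rule found 90 of the 16338 rows, and all 90 passed the filter that kept the 16102 rows averaging 1 normalized count or more. Of the 90, 78 were core ribosomal protein genes, 46 of the large subunit and 32 of the small subunit. A further 11 were paralogs or retrocopies of a core gene, and Rps19bp1 encodes a protein that binds a ribosomal protein and is not part of the ribosome.

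RNA of mouse T cells was sequenced. The cells carried the T cell receptor (TCR) named TRP1high or the one named TRP1low, and had spent 48 h with B cells pulsed with the peptide named M9 or K8. The 4 groups were TRP1high with M9, TRP1high with K8, TRP1low with M9 and TRP1low with K8, and each held 1 library. The T cells were sorted out of the co-culture, and the study is about how changed binding of a tumor peptide to MHC class I bears on responses of CD8 T cells. The sources used here do not give the strain, age or number of animals, the peptide sequences, or how the cells came to carry each TCR. Values are log2 of a normalized count plus 1, and normalized counts in the text have the logarithm and the added 1 undone. With 1 library a group, no difference can be set against the spread between cultures, so differences between single libraries are given with no p-value.

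A ribosome holds each core protein in fixed proportion to the others, and cells tune their supply together. Many of these mRNAs begin with a C followed by a run of pyrimidines, the 5′ terminal oligopyrimidine (TOP) start, through which mTORC1 and the RNA-binding protein Larp1 control their translation. T cells leaving quiescence after antigen enlarge their ribosome pool before they divide. In mammals these genes also have many processed pseudogenes, copies of the mature mRNA pasted elsewhere in the genome, some nearly identical to the parent.

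The TOP start is shown because it is what the core genes are known to share. In the RefSeq table of promoters for GRCm38.p6, 58 of the 78 core genes had a start, and 14 of those 58 had a start with a C as its first base followed by at least 4 pyrimidines on the gene's strand. That was 14 of 68 listed starts of core genes (20.6%), against 823 of 32851 starts of all genes (2.51%). A start without the run says only that these letters are not at that annotated base. The windows below hold 30 bases around the annotated start, with the pyrimidine run in capitals. They belong to Rpl35 (chr2:39005117-39005146, minus strand), Rps6 (chr4:86857353-86857382, minus strand), Rpl15 (chr14:18270972-18271001, minus strand), Rps10 (chr17:27635230-27635259, minus strand) and Fau (chr19:6057932-6057961, plus strand).
Rpl35: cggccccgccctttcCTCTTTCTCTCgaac
Rps6: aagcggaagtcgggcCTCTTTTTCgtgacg
Rpl15: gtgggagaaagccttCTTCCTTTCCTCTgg
Rps10: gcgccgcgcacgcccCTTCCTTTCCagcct
Fau: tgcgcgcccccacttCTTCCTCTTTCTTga

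The libraries held 41.5, 40.5, 40.3 and 29.6 M estimated reads in TRP1high with M9, TRP1high with K8, TRP1low with M9 and TRP1low with K8. All 11 markers of CD8 T cells were above the 3-read floor in every library, with summed levels of 186679, 140437, 175715 and 172898 normalized counts in that order. The 16 B cell markers summed to 1538 and 1115 normalized counts in the M9 libraries of TRP1high and TRP1low, against 4463 and 3208 in their K8 libraries, and 7 and 2 of the 16 were under the floor of 3 reads in those M9 libraries, against 0 and 2 in the K8 ones. Pax5 and Cr2 were at 0 in TRP1high with M9, and Cr2 in TRP1low with M9. The TRP1low K8 library also held more counts of the 5 erythroid markers in the files (609 normalized counts, against 3.18 to 9.46 in the other libraries) and of the 8 myeloid or dendritic ones (177, against 16.0 to 40.02). The 3 markers of NK or gamma delta T cells in the files summed to 569 and 798 normalized counts in the M9 libraries of TRP1high and TRP1low, against 1595 and 1198 in their K8 libraries, and the 4 of CD4 T cells to 119 and 137, against 84.1 and 45.7. The 5 plasma cell markers in the files summed to 2712 in TRP1low with K8, against 6035 to 7055 in the other libraries. The B cell, NK or gamma delta and CD4 lists thus move with the peptide and the erythroid, myeloid and plasma cell lists with 1 library, and their part in the results was not tested.

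The 90 genes took a large and uneven part of each library. They held 11.6% of the estimated reads in TRP1high with M9 (95% Wilson interval 11.616 to 11.636), 9.40% in TRP1high with K8 (9.40 to 9.41), 9.63% in TRP1low with M9 (9.63 to 9.64) and 8.87% in TRP1low with K8 (8.86 to 8.88). The share was thus higher in the M9 library of each TCR and higher in the TRP1high library of each peptide. With the sequence copies described below added, it was 12.6% in TRP1high with K8 against 12.9% in TRP1low with K8, so that with K8 the order of the TCRs turned. Without molecular identifiers these intervals, and those of ratios given further on, hold counting error alone. In sorted cells fewer cells of a type and less RNA per cell cannot be told apart. Core genes of the large subunit held 6.23%, 5.03%, 4.99% and 4.54% of the reads in the same order, and those of the small subunit held 4.95%, 3.997%, 4.22% and 3.92%.

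Levels of the core genes on their own rows spanned a wide range. The lowest core gene in each library was Rps27, at log2 8.41, 8.36, 8.46 and 8.02, while the median core gene lay at 15.30, 14.99, 15.18 and 14.96 and the highest at 18.05, 17.73, 17.84 and 17.58. Compared per kilobase of transcript as a mean over the 4 libraries, the log2 level ran from 9.69 for Rpl5 to 17.95 for Rplp1, with an SD of 1.64 across the 78 genes. Rplp1, of the acidic stalk that recruits elongation factors, Rpl41, the shortest ribosomal protein, at 17.64, and Rps2, at the mRNA entry side of the small subunit, at 17.56, were highest per kilobase. Rpl5, which carries the 5S RNA into the large subunit and binds Mdm2, Rps27 at 9.85 and Rpl12, a factor-binding protein of the large subunit, at 10.22, were lowest. When length was taken from the coding sequence alone, an alternative chosen after seeing the data, Rps27, Rpl5 and Rpl12 were again the lowest and Rpsa replaced Rps2 among the highest.

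**Figure D1:**
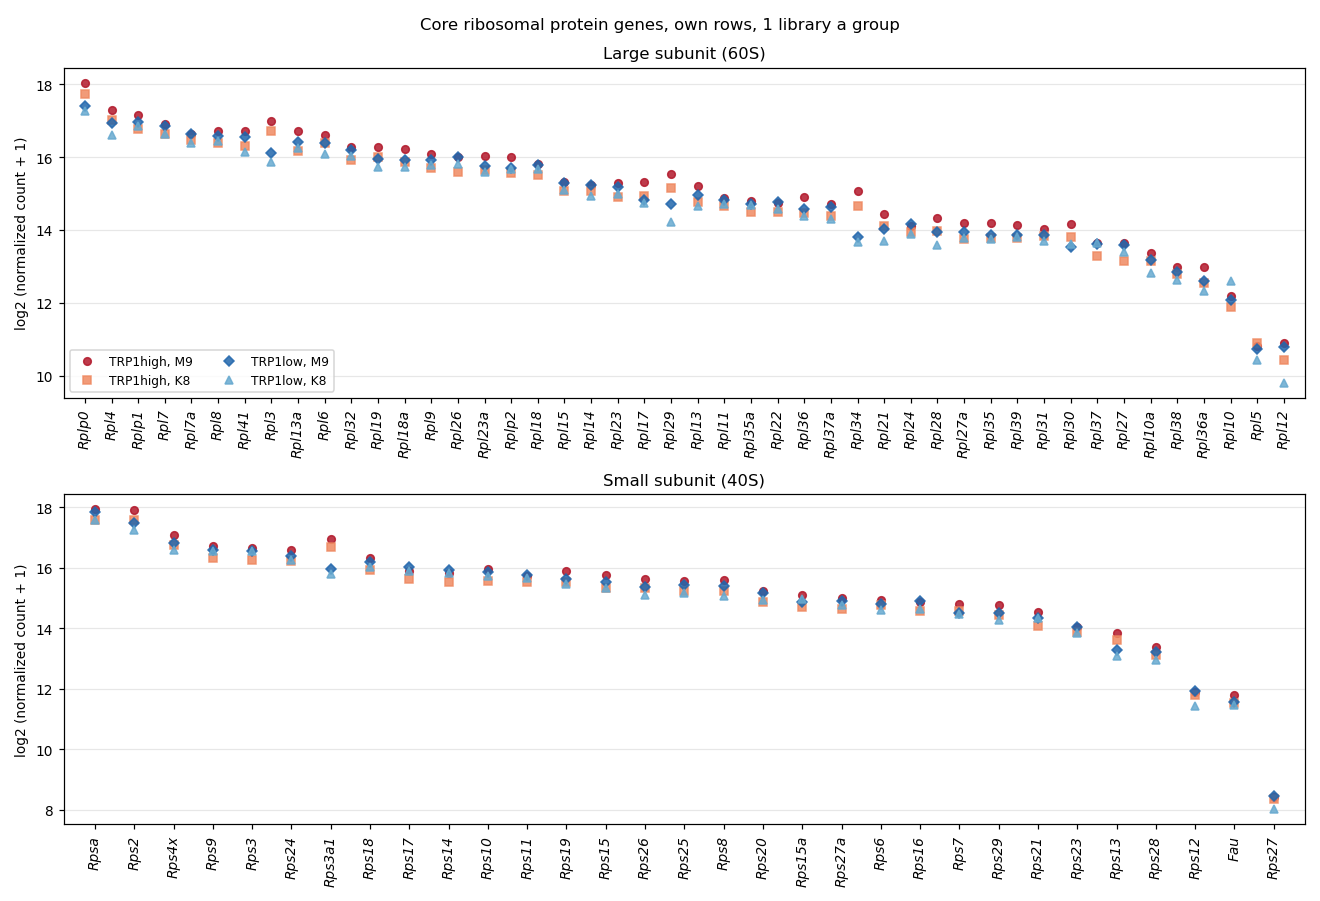
Log2 normalized count plus 1 of 77 of the 78 core ribosomal protein genes, each on its own row, large subunit above and small subunit below, ordered by the mean over the 4 libraries. Each point is 1 library (circles TRP1high with M9, squares TRP1high with K8, diamonds TRP1low with M9, triangles TRP1low with K8). Rps27 is lowest, and Rpl3, Rps3a1, Rpl29 and Rpl34 show both TRP1high libraries above both TRP1low ones.

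Reads of most parents were split with near-identical copies. A copy was any other row whose GENCODE M21 transcript matched at least 50% of the parent's coding sequence with at least 90% identity. By that rule 83 of the 90 genes and 75 of the 78 core genes had a copy in the files, and the 729 distinct copies included 706 annotated pseudogenes. Rpl8, at the peptidyl transferase centre, and Rps3, at the mRNA entry, were among the core genes with none. Rpl7a had the most copies, 55, followed by Rps2 with 51 and Rpl21 with 49. Copies that are no members held 3.95%, 3.22%, 4.20% and 4.02% of the estimated reads in TRP1high with M9, TRP1high with K8, TRP1low with M9 and TRP1low with K8, so members and copies together held 15.6%, 12.6%, 13.8% and 12.9%.

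In 28 core genes over 50% of the family's normalized counts, meaning the parent's and its copies' together, lay on the copies in all 4 libraries, while in 23 core genes under 1% did. Rpl5, Rpl12 and Rps27, the lowest core genes, were among the 28. Rpl5 had 1798, 1910, 1681 and 1380 normalized counts, whereas its copy Gm15500, identical over the whole coding sequence, had 129935, 107526, 118367 and 101397 in TRP1high with M9, TRP1high with K8, TRP1low with M9 and TRP1low with K8. Rpl12 had 1907, 1383, 1761 and 889, against 91722, 68802, 87696 and 72115 on the identical Gm10275. Rps27 had 339, 327, 352 and 258, against 38094, 30700, 33262 and 33842 on Rps27rt, a retrocopy with the same coding sequence. Fau, Rpl10 and Rps12 also had over 90% of the family's counts on copies in every library. Reads from identical stretches cannot be told apart, so a row of this kind does not measure its gene alone. With each core gene summed with its copies, the log2 level per kilobase ran from 14.33 (Rps20) to 17.95 (Rplp1), with an SD of 0.62. The transcript used for Rps20 was 3706 bases long.

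The first comparison asks how M9 and K8 stimulation differed. In TRP1high, core ribosomal protein genes were higher with M9 almost without exception: 77 of 78 lay above 0, against 45.8% of all tested genes, and the median log2 difference was 0.33, against -0.02 for all genes. Rpl5, at -0.09, was the exception, and summed with its copies it was at 0.27. At least 1.3-fold higher were 23 core genes and 0 were as much lower, while 15.3% of all tested genes were 1.3-fold higher and 16.2% lower. The subunits lay close together, with a median of 0.34 in the large subunit (quartiles 0.29 and 0.40) and 0.32 in the small subunit (quartiles 0.26 and 0.37). B cell markers, lower in both M9 libraries as given above, move with this comparison, and their part in it was not tested.

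Rpl13a, a large subunit protein that also acts in interferon-induced translational silencing in human cells, had the highest difference of a core gene in TRP1high. It had 108834 normalized counts with M9 and 74188 with K8 in TRP1high, and 87358 with M9 and 77420 with K8 in TRP1low. It was 1.47-fold higher with M9 in TRP1high (95% exact interval of the ratio of reads 1.45 to 1.48) and 1.13-fold higher in TRP1low (1.12 to 1.14), and under 0.1% of its family's counts lay on copies in each library. Rpl27 had 12835 normalized counts with M9 and 9104 with K8 in TRP1high, and 12328 and 10864 in TRP1low. It was 1.41-fold higher with M9 in TRP1high (1.37 to 1.45) and 1.13-fold higher in TRP1low (1.10 to 1.17), and with the copies that held 73.7% to 76.8% of its family's counts it was at log2 differences of 0.31 and 0.18. Rps21, of the small subunit, had 23775 normalized counts with M9 and 17153 with K8 in TRP1high, but 20613 and 20589 in TRP1low. Its log2 difference was thus 0.47 in TRP1high and 0.00 in TRP1low.

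Rpl8 and Rps3, which have no copies, were read on rows of their own. Rpl8 was at log2 differences of 0.33 in TRP1high and 0.15 in TRP1low, and Rps3 at 0.39 and -0.01. Rps6, the substrate of the S6 kinases, was at 0.17 and 0.21, and at 0.25 and 0.09 summed with its copies. Rpl4, which lines the exit tunnel, was at 0.29 and 0.32, and Rpl41 at 0.41 and 0.40.

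In TRP1low the core genes again lay mostly higher with M9, by less. There 73 of 78 were above 0, against 51.8% of all tested genes, with a median log2 difference of 0.19, against 0.02 for all genes. At least 1.3-fold higher were 5 core genes (Rpl12, Rpl29, Rpl41, Rps12 and Rps27) and 1 was as much lower (Rpl10), under the 19.4% and 18.9% of all genes. Over both TCRs, 72 of 78 core genes were higher with M9 in each, against 28.8% of all tested genes, but only 3 were 1.3-fold higher in each, against 6.33%. The direction was thus shared by nearly the whole list while few of its genes passed the fold. Over the 78 core genes, which share their libraries and so are no replicates, the difference in TRP1high and that in TRP1low had a Pearson r of -0.12 and a Spearman rho of -0.24. Whether the difference was smaller in TRP1low cannot be tested with 1 library a group.

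Several of the larger single values in TRP1low, but not all, lay in rows of mostly shared reads. Rpl29 was at log2 differences of 0.38 in TRP1high and 0.49 in TRP1low, and at 0.38 and 0.47 with its copies. Rpl41 was at 0.40 in TRP1low with or without its copies. Rpl12 was 1.38-fold higher with M9 in TRP1high (1.29 to 1.48) and 1.98-fold higher in TRP1low (1.81 to 2.17), yet its family sum was at log2 differences of 0.42 and 0.29. Rpl10, the protein that joins the large subunit last, had 4653 normalized counts with M9 and 3778 with K8 in TRP1high, but 4343 with M9 and 6143 with K8 in TRP1low. It was 1.23-fold higher with M9 in TRP1high (1.18 to 1.29) and 1.41-fold lower in TRP1low, a ratio of 0.707 (0.678 to 0.738). Its copies Rpl10-ps3 and Rpl10-ps1 are identical over the coding sequence and held most of the family's counts, and the family sum was at 0.21 and 0.01. Rps12, known in the fruit fly for its part in cell competition, had 3831, 3507, 3850 and 2771 normalized counts and was at 0.13 in TRP1high and 0.47 in TRP1low, with 0.41 and 0.16 for its family. Rps15a, with 29.2% to 31.9% of its family's counts on copies, was at 0.39 in TRP1high and -0.10 in TRP1low. With its copies it was at 0.33 and -0.05.

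**Figure D2:**
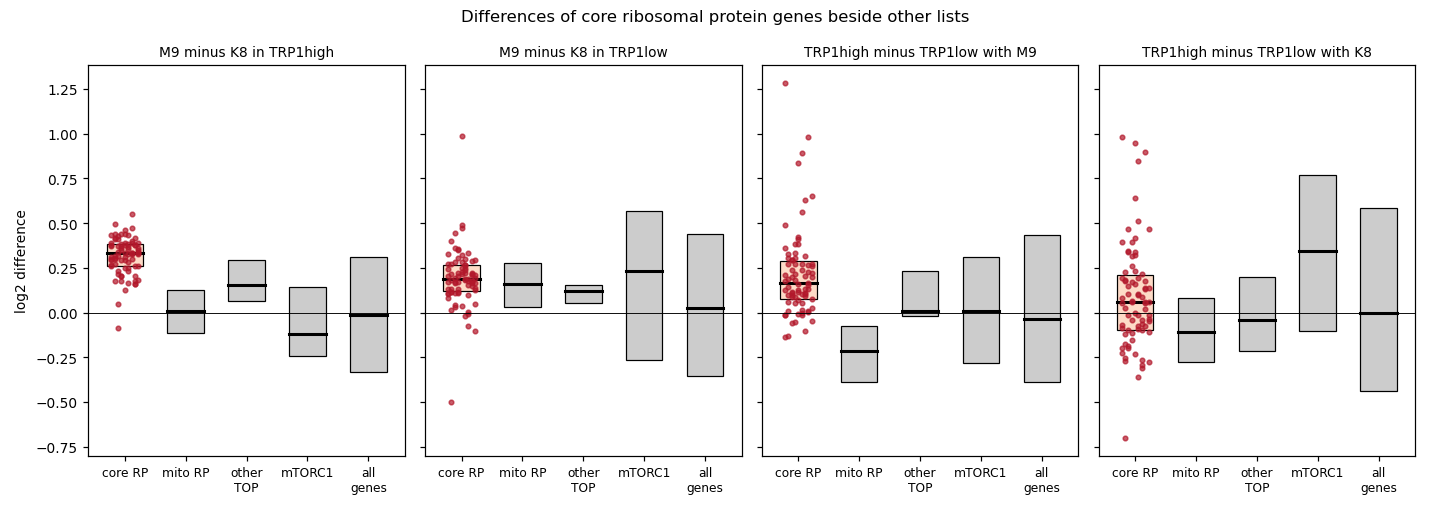
Log2 differences between single libraries for the 4 pairs, M9 minus K8 on the left and TRP1high minus TRP1low on the right. Points are the 78 core ribosomal protein genes, boxes span the quartiles of each list and the thick line is its median; RP is ribosomal protein, mito RP the mitochondrial ribosomal proteins, and TOP other translation genes with a TOP start. With M9, 77 of 78 core genes lie above 0 in TRP1high and 73 of 78 in TRP1low (medians 0.33 and 0.19), and 4 genes lie between 0.84 and 1.28 for TRP1high minus TRP1low with M9.

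An additive limma fit of TCR and peptide over all 16102 genes has 1 residual degree of freedom. Its error mixes the disagreement between the pairs with a variance estimated over all genes, which had 1.4 prior degrees of freedom. It does not hold the spread between cultures. Rpl41, whose 2 pairs nearly agreed, still had an SE of 0.188 for the peptide. For the peptide, 0 of the 90 members had a Benjamini-Hochberg adjusted p under 0.05 in limma, and 0 of all genes did (0.0%). Without adjustment 0 members had a p under 0.05, against 8.33% of all genes. With limma's trend and robust options 0 members had an adjusted p under 0.05, but 27 of 90 had an unadjusted one under 0.05, against 11.7% of all genes, so the members' place relative to the background turned with this setting. In the fit without them Rpl12 had the lowest, with a limma log2 difference of 0.72 (SE 0.25, unadjusted p = 0.0836, adjusted p = 0.617), higher with M9 in both TCRs. In this design a member would need a large and equal difference in both pairs to pass.

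Genes tied to the ribosome by other roles did not all sit with the core genes. Of all tested genes, 45.8% in TRP1high and 51.8% in TRP1low were above 0 with M9, and 15.3% and 19.4% were at least 1.3-fold higher. The 17 other translation genes with a TOP start had median log2 differences with M9 of 0.15 in TRP1high (15 of 17 above 0) and 0.12 in TRP1low (16 of 17), with 1 and 0 of them at least 1.3-fold higher. Among them the elongation factor Eef2 was at 0.29 and 0.22, Rack1, a scaffold on the small subunit, at 0.37 and 0.15, and Tpt1 at 0.39 and 0.11, while Npm1, a nucleolar chaperone, was at -0.10 and 0.02. The 78 mitochondrial ribosomal proteins were at 0.01 (41 above 0) and 0.16 (62 above 0), with 4 of the 82 rows so named left out as pseudogenes after seeing the data. The 17 chaperones and assembly partners of ribosomal proteins in the files were at -0.15 (2 above 0) and -0.02 (6 above 0); Tsr2, which escorts Rps26, was at -0.47 and -0.20, Ltv1, of small subunit assembly, at -0.43 and -0.01, and Nmd3, the export adaptor of the large subunit, at -0.42 and -0.21.

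The 23 genes of the mTORC1 and S6 kinase pathway had medians of -0.12 in TRP1high (9 above 0) and 0.23 in TRP1low (15 above 0). Pdcd4, a translation inhibitor degraded after S6 kinase activity, was lower with M9, at log2 differences of -1.28 and -0.79. Larp1 was at 0.02 in TRP1high and 1.07 in TRP1low, and Eef2k, the kinase that inhibits Eef2, at 0.06 and 1.49. Eif4ebp1, an mTORC1 substrate that holds back Eif4e, was at 0.29 and 1.11, and Myc, a transcription factor that drives ribosome synthesis, at 0.14 and 0.75. Mtor itself was at -0.17 and 0.27. Rps6ka5, a kinase activated by MAP kinases, had the largest difference of the list in TRP1low and the other way, at -0.07 in TRP1high and -1.74 in TRP1low.

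The second comparison asks how T cells with the TRP1high and TRP1low receptors differed under the same peptide. On their own rows, core genes had a median log2 difference of 0.16 with M9 (67 of 78 above 0, against 46.9% of all genes) and 0.06 with K8 (44 of 78, against 49.1%). At least 1.3-fold higher in TRP1high were 12 core genes with M9 and 11 with K8, against 19.9% and 22.9% of all genes, and 0 and 1 were as much lower, against 19.7% and 23.2%. The 8 core genes 1.3-fold higher with both peptides were Rpl3, Rpl21, Rpl28, Rpl29, Rpl34, Rplp0, Rps3a1 and Rps13, a share close to the 11.3% of all genes. On their own rows, then, no excess over all genes was seen past this fold. The share of all genes, here and for the peptide, takes in rows with far fewer counts than the core genes. Shares were not matched by level.

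Rpl34, a large subunit protein (chromosome 3, 130726831 to 130730398, GRCm38, minus strand), had the largest difference of a core gene with each peptide. It had 34609 normalized counts in TRP1high with M9 and 25649 in TRP1high with K8, against 14223 in TRP1low with M9 and 12971 in TRP1low with K8. Both TRP1high libraries lay above both TRP1low ones, by 2.43-fold with M9 (95% exact interval of the ratio of reads 2.39 to 2.48) and 1.98-fold with K8 (1.93 to 2.02). Its copy Rpl34-ps1 went the other way, with 3655 and 3470 normalized counts in TRP1high with M9 and K8, against 20766 and 20363 in TRP1low. Summed over the family, Rpl34 was at log2 differences of 0.12 with M9 and -0.20 with K8.

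Rps3a1, of the small subunit (chromosome 3, 86137940 to 86142702, minus strand), had 126559 and 105644 normalized counts in TRP1high with M9 and K8, against 64060 and 56673 in TRP1low. Rps3a2 had 96.0 and 170.7 in TRP1high, against 41386 and 41043 in TRP1low, and Rps3a3 had 122.7 and 85.8, against 19177 and 16859. Copies thus held 0.444% and 0.467% of the family's counts in TRP1high with M9 and K8, and 48.7% and 50.7% in TRP1low. The row of Rps3a1 was 1.98-fold (1.96 to 1.99) and 1.86-fold (1.84 to 1.89) higher in TRP1high, and the family sum was at log2 differences of 0.02 and -0.11.

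Rpl3, which lies beside the peptidyl transferase centre (chromosome 15, 80077791 to 80091868, minus strand), had 130814 and 107422 normalized counts in TRP1high with M9 and K8, against 70407 and 59607 in TRP1low. Rpl3-ps1 on the X chromosome was listed at 0 in TRP1high with M9 and at 112.8 with K8, against 45208 and 41679 in TRP1low. The row of Rpl3 was 1.86-fold (1.84 to 1.88) and 1.80-fold (1.78 to 1.82) higher in TRP1high, and with its copies the gene was at 0.18 and 0.09 on the log2 scale.

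Parent and copy differ at few bases. Rpl3-ps1 had 2 substitutions over 1209 aligned coding bases, Rpl34-ps1 had 2 over 354, Rps3a2 had 4 over 792, Rps3a3 had 9 over 795, Rps13-ps1 had 2 over 456, and Gm8730, a copy of Rplp0, had 12 over 954. Each pair below shows the same 60 bases of the parent's coding sequence and of the copy, from GENCODE M21 transcripts (GRCm38), with the bases at which the pair differs in capitals. Rpl3-ps1 lies at chrX:13202571-13203780, Rps3a2 at chr14:88123017-88123808, Rps3a3 at chr13:108670603-108671397, Rpl34-ps1 at chr6:71124610-71124963, and Gm8730 at chr8:102864845-102865798, all processed pseudogenes. They are shown because, within the coding sequence, differences like these can separate a read of the parent from a read of the copy. Each window holds only some of a pair's differences, such as 2 of 9 for Rps3a3 and 3 of 12 for Gm8730. Bases outside the coding sequence of the parent were not compared.
Rpl3: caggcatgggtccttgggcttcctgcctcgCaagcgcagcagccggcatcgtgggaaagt
Rpl3-ps1: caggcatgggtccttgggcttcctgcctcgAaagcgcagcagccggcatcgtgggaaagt
Rpl34: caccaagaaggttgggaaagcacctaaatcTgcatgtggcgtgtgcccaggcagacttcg
Rpl34-ps1: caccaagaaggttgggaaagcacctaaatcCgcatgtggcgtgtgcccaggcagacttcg
Rps3a1: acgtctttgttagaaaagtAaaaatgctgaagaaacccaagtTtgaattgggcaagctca
Rps3a2: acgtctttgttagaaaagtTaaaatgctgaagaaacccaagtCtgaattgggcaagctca
Rps3a1: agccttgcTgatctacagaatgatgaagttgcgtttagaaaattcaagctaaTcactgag
Rps3a3: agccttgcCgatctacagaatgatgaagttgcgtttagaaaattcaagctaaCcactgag
Rplp0: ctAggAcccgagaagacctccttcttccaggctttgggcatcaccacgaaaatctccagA
Gm8730: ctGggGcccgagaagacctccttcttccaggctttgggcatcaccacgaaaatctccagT

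The same pattern was seen in 8 core genes, whose share of family counts on copies was at least 10 percentage points higher in each TRP1low library than in either TRP1high library, while 0 core genes had it the other way. Besides Rps3a1, Rpl34 and Rpl3 these were Rpl29, Rps2, Rplp0, Rps7 and Rpl30. Rpl29 had 47851 and 36777 normalized counts in TRP1high with M9 and K8, against 26756 and 19085 in TRP1low, Rps2 had 243297 and 193360, against 181576 and 154948, and Rplp0 had 271747 and 216897, against 172827 and 157083. Both TRP1high libraries lay above both TRP1low ones in each. Rpl29, which is dispensable for life in the mouse but needed for normal growth, had copy shares of 0.837% and 0.784% in TRP1high with M9 and K8, and 29.7% and 30.4% in TRP1low. Rps2 had 1.76% and 2.31% in TRP1high, and 26.9% and 26.0% in TRP1low. Rplp0, the base of the acidic stalk, had 0.282% and 0.241% in TRP1high, and 22.2% and 21.5% in TRP1low, with Gm8730 at 235.5 and 167.7 normalized counts in TRP1high against 41512 and 35774 in TRP1low.

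For Rps7, a small subunit protein that can also bind Mdm2, the copy share was 47.0% and 46.8% in TRP1high with M9 and K8, and 58.3% and 60.5% in TRP1low. For Rpl30 it was 58.3% and 59.7% in TRP1high, and 72.1% and 70.5% in TRP1low. Rps13 lay just outside the limit, with a gap of 9.96 points, and its copy Rps13-ps1 had 30.7 and 79.9 normalized counts in TRP1high, against 16456 and 14882 in TRP1low. Next came Rpl17, with a gap of 3.92 points. Of the 461 copies with at least 10 normalized counts in a library, 30 (6.51%) were at least 2-fold lower in TRP1high with both peptides and 10 (2.17%) at least 2-fold higher, against 3.37% and 4.61% of all such genes.

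**Figure D3:**
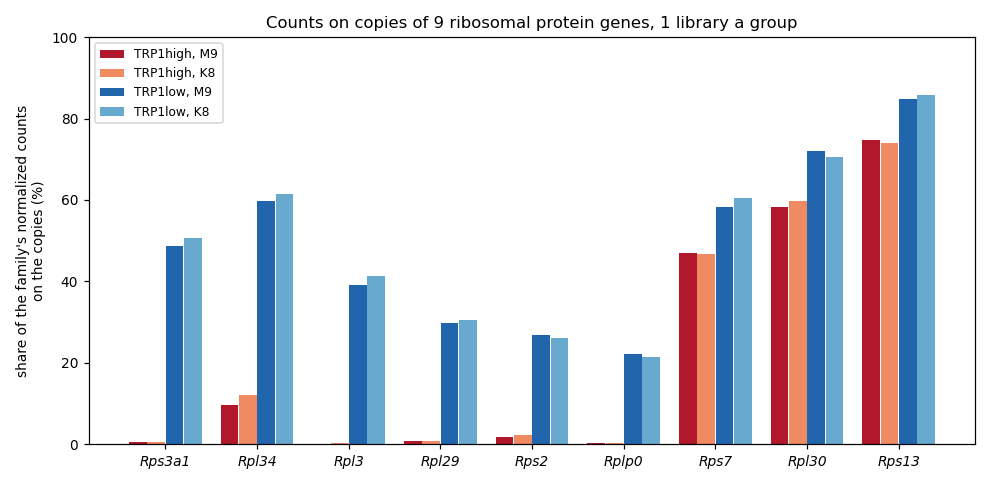
Percent of the summed normalized counts of a parent and its copies that lay on the copies, for the 8 core genes with shares at least 10 points higher in both TRP1low libraries and for Rps13, with a gap of 9.96 points. Each bar is 1 library. Both TRP1high bars stand below both TRP1low bars in each gene shown, with 0.0990% and 0.177% in TRP1high against 39.2% and 41.2% in TRP1low for Rpl3, and 74.8% and 74.1% against 84.8% and 85.7% for Rps13.

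These 8 genes were chosen after their values were seen, so their medians are a description. On their own rows their median log2 difference was 0.75 with M9 and 0.66 with K8, and summed with copies it was 0.08 and -0.10. The other 70 core genes had medians of 0.13 and 0.02 on their own rows and of 0.13 and -0.05 summed with copies. With copies added, 0 core genes were 1.3-fold higher in TRP1high with both peptides. Rpl21 and Rpl28, which were on their own rows, then had log2 differences of 0.38 and 0.30, and of 0.40 and 0.24, with M9 and K8. Across all 78 core genes the median was 0.13 with M9 and -0.06 with K8 when summed with copies, so with K8 its sign turned. Whether the reads listed on these copies came from the copies or from their parents was not tested. The sources used here give neither mouse strain nor read length for the libraries, so a difference of strain or sequencing between TRP1high and TRP1low cells cannot be told apart from the receptor in these values.

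**Figure D4:**
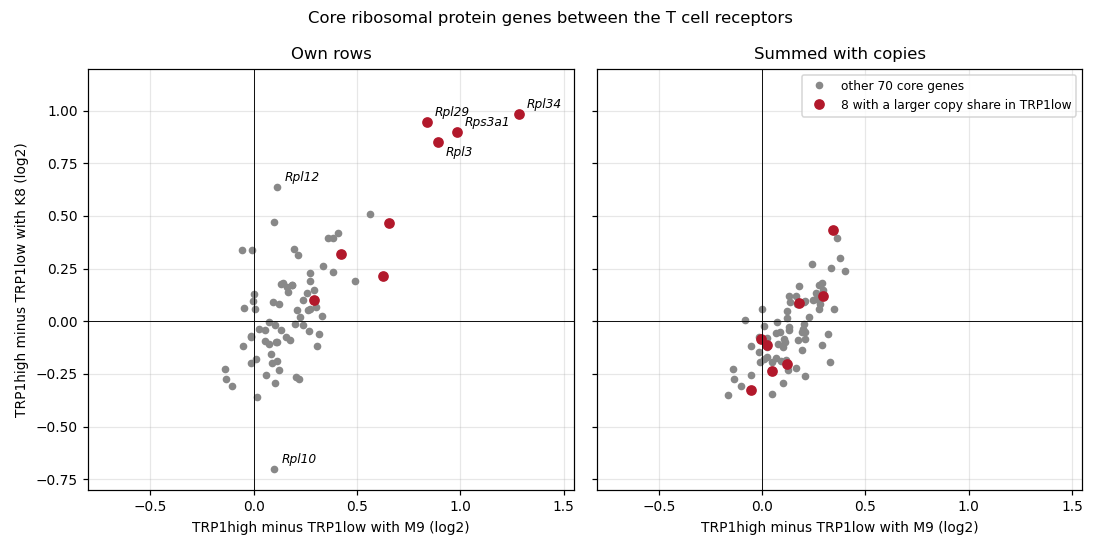
Log2 difference TRP1high minus TRP1low with M9 (horizontal) and with K8 (vertical) of the 78 core genes, on their own rows at left and summed with their copies at right. Red points are the 8 genes with larger copy shares in TRP1low, with medians of 0.75 and 0.66 at left and 0.08 and -0.10 at right; grey points are the other 70.

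A core gene with few reads on copies was also higher in TRP1high with both peptides. Rpl4, with a copy share of about 0.02% in each library, had 162550 and 132851 normalized counts in TRP1high with M9 and K8, against 126520 and 101027 in TRP1low, and was 1.285-fold (1.275 to 1.294) and 1.315-fold (1.303 to 1.327) higher in TRP1high. Other genes had a difference with K8 mainly. Rpl10 was at 0.10 with M9 and -0.70 with K8, and at -0.05 and -0.25 with its copies. Rpl37, a large subunit protein, was at 0.01 and -0.36, and its retrocopy Rpl37rt, 99.7% identical over the coding sequence, at 0.07 and -0.34. The TRP1low K8 library, which also held the erythroid and myeloid counts given above, is part of each difference with K8.

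In the additive limma fit of the TCR, 0 of the 90 members and 0 of all genes (0.0%) had a Benjamini-Hochberg adjusted p under 0.05. Without adjustment 6 members had a limma p under 0.05, against 12.7% of all genes. They were Rpl34 (log2 difference 1.13, SE 0.21), Rps4l (2.02, SE 0.40), Rps3a1 (0.94, SE 0.19), Rpl39l (1.04, SE 0.21), Rpl29 (0.89, SE 0.19) and Rpl3 (0.87, SE 0.19), each higher in TRP1high with both peptides. All had a limma adjusted p of 0.383. With limma's trend and robust options 4 of the 90 members had an adjusted p under 0.05, against 184 of all 16102 genes. These members were Rps3a1 (limma adjusted p = 0.0286), Rpl34 (0.0301), Rpl3 (0.0337) and Rpl29 (0.0381). All 4 are among the 8 genes with larger copy shares in TRP1low.

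The lists of related genes again differed from one another. Of all 16102 tested genes, 8406 with M9 and 8066 with K8 were below 0 for TRP1high minus TRP1low. At least 1.3-fold lower were 19.7% and 23.2% of all genes, and 19.9% and 22.9% were as much higher. TRP1high minus TRP1low medians were 0.01 with M9 and -0.04 with K8 for the other TOP genes, -0.22 and -0.11 for the mitochondrial ribosomal proteins (67 and 54 of 78 below 0, 21 and 5 at least 1.3-fold lower, 0 and 2 as much higher), -0.29 and -0.08 for the chaperones and assembly partners, and 0.01 and 0.35 for the mTORC1 and S6 kinase genes. Larp1 stood out in the last list, at log2 differences of 1.11 with M9 and 2.16 with K8, while Rps6ka5 was at 0.06 and -1.61.

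Differences of at least 2-fold were few and lay mostly in paralogs and retrocopies. With M9 against K8, 1 member was 2-fold higher in TRP1high (Rpl6l, against 5.14% of all genes) and 1 in TRP1low (Rps4l, against 7.67%), and 0 were 2-fold lower, against 4.73% and 7.43%. Between the TCRs, 3 members were 2-fold higher in TRP1high with M9 (Rpl34, Rpl39l and Rps4l, against 7.37%) and 1 with K8 (Rps4l, against 10.6%), while 0 and 1 (Rpl6l) were 2-fold lower, against 5.58% and 8.35%.

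The paralogs and retrocopies follow one by one. Rps4l, a transcribed processed pseudogene named for its likeness to ribosomal protein S4 (chromosome 6, 148354656 to 148355598), had 143.4 and 110.3 normalized counts in TRP1high with M9 and K8, against 51.1 and 17.9 in TRP1low. It was 2.81-fold (2.01 to 3.94) and 6.17-fold (3.47 to 11.96) higher in TRP1high, and for M9 minus K8 it was at log2 differences of 0.38 in TRP1high and 1.46 in TRP1low. Rpl39l, a paralog of the exit tunnel protein Rpl39 known from the testis, had 114.6 and 88.5 in TRP1high with M9 and K8, against 49.6 and 47.6 in TRP1low. It was 2.31-fold (1.65 to 3.34) and 1.86-fold (1.24 to 2.83) higher in TRP1high. Both genes lay higher in each TRP1high library, and had no copy by the rule.

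Rpl6l, a processed pseudogene of Rpl6 with over 99% of its family's counts on other rows in every library, had 67 and 20 estimated reads in TRP1high with M9 and K8, and 41 and 39 in TRP1low. It was 3.32-fold (1.99 to 5.78) higher with M9 in TRP1high and 1.24-fold lower in TRP1low, a ratio of 0.806 (0.507 to 1.28). Rpl32l stayed under 10 normalized counts in every library. Rps12l1, a retrocopy identical to the coding sequence of Rps12, had 86508, 66875, 87014 and 72655 normalized counts, far above the parent's row. Rps27rt and Rpl37rt likewise lay above their parents.

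Rpl22 is needed for the development of alpha beta T cells in the mouse, and Rpl22l1 is its close paralog. Rpl22 had 27653 and 23250 normalized counts in TRP1high with M9 and K8, and 27894 and 24454 in TRP1low, while Rpl22l1 had 10712 and 8680 in TRP1high, and 10039 and 10490 in TRP1low. With M9, Rpl22 was at log2 differences of 0.25 and 0.19 and Rpl22l1 at 0.30 and -0.06. Rps27l, a p53 target, was at 0.01 and 0.13, and Rpl36al at 0.15 and 0.22. Rpl7l1, which replaces Rpl7 in early assembly of the large subunit, was lower with M9 in both TCRs, at -0.23 and -0.10, and lower in TRP1high with both peptides, at -0.27 and -0.14. Rps19bp1 was at -0.16 in TRP1high and 0.23 in TRP1low with M9.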

How the data were processed

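RNA sequencing covered 4 libraries of sorted mouse T cells, 1 a group. The deposited values are log2 normalized counts per the file headers, 1 value a gene symbol and library, and were read as log2 of a scaled count plus 1. The submitters' processing notes name Salmon 0.8.2, DESeq2 1.20.0 and the build mm10, the annotation and filters being not given in the sources used here. Steps between low values gave the worth of 1 read, 0.989, 0.998, 1.05 and 1.37 normalized counts in TRP1high with M9, TRP1high with K8, TRP1low with M9 and TRP1low with K8, and values divided by it are estimated reads. Salmon shares reads among matching transcripts, so counts of parents and copies depend on that sharing.

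The members, lists, limits and named genes were chosen with earlier results of these data known. A fold was counted where 1 library of the pair had at least 10 normalized counts. Members named one by one were those past 2-fold, the 3 highest and 3 lowest of each pair with a mean of at least 100 normalized counts, all paralogs, the 3 highest and lowest core genes per kilobase, Rps19bp1 and the members with the largest copy shares; others were named after their values were seen, and some genes are not reported here. Copies were found with blastn 2.17.0 against GENCODE M21 transcripts; a copy can belong to more than 1 parent. Intervals are 95% Wilson for shares and 95% Clopper-Pearson for ratios of reads. The additive model was fitted with limma 3.58.1 in R 4.3.3 and tested on simulated data; the rest used Python 3.11.15. Alternatives were other scalings, an added constant of 10, no filter on low values, sums with copies and sets of members.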

Additional observations from a re-analysis of the deposited data

Results flagged for a closer look

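Among the members named by rule, Rpl10, Rpl6l and Rps15a had log2 differences of opposite sign in the 2 pairs of a contrast. At least 1 of the 2 differences was 1.3-fold or more. With 1 library a group that difference of differences was not tested. At any size, signs were opposite in 12 of the 90 members for the peptide and in 38 of the 90 for the TCR. Rps3, named outside the rule, also met this limit for the peptide, with the values given above. For Rpl10, M9 minus K8 was 0.30 in TRP1high and -0.50 in TRP1low, a gap of 0.80, and TRP1high minus TRP1low was 0.10 with M9 and -0.70 with K8, the same gap. Summed with its copies, the gap of Rpl10 was 0.20. For Rpl6l, M9 minus K8 was 1.68 in TRP1high and -0.30 in TRP1low, and TRP1high minus TRP1low was 0.61 with M9 and -1.37 with K8, a gap of 1.99 in each contrast. These values of Rpl6l rest on 67, 20, 41 and 39 estimated reads in TRP1high with M9, TRP1high with K8, TRP1low with M9 and TRP1low with K8, and with its copies the gap was -0.03. For Rps15a, M9 minus K8 was 0.39 in TRP1high and -0.10 in TRP1low, a gap of 0.49, and 0.39 with its copies.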

How the results depend on the processing

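Libraries could not be paired by replicate, because each group holds 1 library and shares no replicate number with another. No library could be left out. The additive fit of TCR and peptide compares the pairs of libraries within each TCR and peptide, and is the only pairing used. The cause of the shifts below was not tested. The set without copied members leaves out 83 of the 90 members. Its counts past 1.3-fold are therefore out of far fewer genes and are no measure of a fall from the counts over all 90. For M9 minus K8 in TRP1high, the members' median of 0.33 was 0.30 with equal library totals (CPM), 0.36 with median-of-ratios factors and 0.33 over core genes, and the 24 members 1.3-fold higher became 15, 37 and, over members without a copy, 1. In TRP1low the median of 0.19 was 0.12 with CPM, 0.18 with median-of-ratios, 0.16 summed with copies or with strict copies, 0.19 over core genes and 0.15 without copied members; the 6 higher became 3 with copies and 1 without copied members, and the 1 lower became 0 in both. For TRP1high minus TRP1low with M9, the median of 0.15 was 0.19 and 0.22 with the 2 scalings, 0.12 summed with copies or strict copies, 0.16 over core genes and 0.10 without copied members; the 15 higher became 3 with copies and 2 without copied members, and the 0 lower became 1 with no filter on low values. With K8 the median of 0.057 was 0.061 and 0.089 with the 2 scalings, but -0.059 with copies or strict copies and -0.042 without copied members; the 13 higher became 4 and 2, and the 2 lower became 0, 0 and, over core genes, 1. The members' read shares in TRP1high with M9, TRP1high with K8, TRP1low with M9 and TRP1low with K8 were 15.6%, 12.6%, 13.8% and 12.9% with copies, and 12.2%, 10.01%, 10.4% and 9.57% without mitochondrially encoded genes in the total. In the limma fit of the TCR, trend and robust options called 4 members, against 0 (for the peptide 0 members in either fit). The same options called 184 of all 16102 genes for the TCR. An added constant of 10 called 0 members and 32 of all 16102 genes. Summed with copies, 33 of 360 member values over the 4 pairs changed sign, 9 of them at least 1.3-fold on the own row: for M9 minus K8 in TRP1low, Rpl10 became 0.013 and Rps27 -0.021; for TRP1high minus TRP1low, Rps2 became -0.0047 with M9, and with K8 Rpl12 became -0.057, Rpl34 -0.20, Rpl6l 0.27 and Rps3a1 -0.11, and Rps13 became -0.16 with M9 and -0.35 with K8. Over the scalings, the added constant, the missing filter and the sums with copies, 145 values of members named by rule moved by more than counting error. In the same settings 468 moved by less, and 7 values of at least 1.3-fold changed sign. Members under 10 normalized counts, such as Rpl32l, carry no usable fold.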
